A study of Mus musculus with 24 samples.

Results

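The genes described here are 10 chemokines and chemokine receptors that draw monocytes into tissue. They are the CC ligands Ccl2, Ccl7, Ccl12, Ccl8, Ccl3 and Ccl4, the transmembrane chemokine Cx3cl1, and the receptors Ccr2, Ccr1 and Cx3cr1. They were taken by gene name from the spots outside controls on each array, and the brightest probe stood for a gene, so that 10 of the 35019 genes on the array are covered. The series holds 24 Agilent arrays read in a single colour, with RNA of mouse aorta and 8 groups of 3. All groups have the C57BL/6 strain label. The knockout groups are IL-17 knockouts given 1% NaCl to drink with the infusion, the infusion alone, salt alone, or vehicle alone, and the same 4 exposures were given to wild-type mice. The infusion ran for 3 days and combined angiotensin II, a hormone that raises blood pressure, with BAPN (β-aminopropionitrile), which inhibits lysyl oxidase enzymes and so the linking of collagen and elastin fibres. Salt was given before and during the infusion period. The labels name neither the deleted IL-17 gene nor the cells or exons affected, they give no age, and the protocol speaks of RNA from cells where the sample labels say aorta.

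Chemokines are small secreted proteins that bind G-protein-coupled receptors on leukocytes and guide them along a gradient. Ccr2 on classical monocytes binds Ccl2, Ccl7 and Ccl12, and its signal lets these cells leave the bone marrow and enter injured tissue. Ccl3 acts on Ccr1, Ccl4 is its close relative, and Cx3cl1, held on the surface of endothelial and other cells until proteases cut it free, binds Cx3cr1 on patrolling monocytes and tissue macrophages.

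The share of spots well above background ran from 51.1% to 60.8% over the arrays, and no spot was saturated. The 8 smooth muscle and the 8 endothelial markers looked for were all well above background on all 24 arrays. Each slide held arrays of 1 genotype and was scanned in 1 of 2 sessions, so genotype, slide and session cannot be told apart. The infused and vehicle knockouts without salt shared slide 1 apart from infused array 3. The salt groups of the wild type, with and without infusion, shared slide 3 apart from array 3 of the infused salt group. Infusion in the wild type without salt, and infusion in the knockout with salt, were compared across slides. Array 3 of the infusion-only groups stood apart from its group in both genotypes (lowest correlation with another array of the group 0.9716 in the knockout and 0.9713 in the wild type, against 0.9807 or higher within the other groups), and results are given with and without these arrays.

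In mice, 6 of the ligand genes lie on chromosome 11. Among these 10 genes, the probes for Ccl2 (81850650 to 81850709), Ccl7 (81860656 to 81860715), Ccl12 (81916764 to 81916823) and Ccl8 (81930108 to 81930167) come in that order. Those for Ccl3 (83461358 to 83461417) and Ccl4 (83478052 to 83478111) lie farther along (mm9, the array's build). Genes outside the 10 were not placed. Probes for Ccr1 (123877790 to 123877849), Ccr2 (124022948 to 124023007) and Cx3cr1 (119957811 to 119957870) lie on chromosome 9, and the probe for Cx3cl1 (97306185 to 97306244) on chromosome 8. Promoter sequences from RefSeq (GRCm38.p6) were matched by symbol for 7 of the 10 genes, and not for Ccl2, Ccl7 and Ccl4. Those of Ccl12 and Ccl8 are shown because these neighbouring genes both rose in every infusion comparison below and because, of the 7, they were the ones with a TATA box. Each line gives the 150 bases that end 1 base before the annotated start, on the plus strand, for Ccl12 at chr11:82101695-82101844 and for Ccl8 at chr11:82115035-82115184, with the TATA box in capitals.
Ccl12: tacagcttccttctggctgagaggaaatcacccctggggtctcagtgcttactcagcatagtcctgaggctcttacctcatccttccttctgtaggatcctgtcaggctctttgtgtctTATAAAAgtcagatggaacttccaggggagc
Ccl8: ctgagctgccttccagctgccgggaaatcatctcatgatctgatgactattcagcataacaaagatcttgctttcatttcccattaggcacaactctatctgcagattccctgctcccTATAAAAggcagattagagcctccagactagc
The TATA box was searched as TATAAAA on both strands in the 250 bases before the start. It began 31 bases before the start in Ccl12 and 32 bases before it in Ccl8, and 4.98% of the 32851 promoters in the table held it. The AP-1 motif TGANTCA (6.75% of promoters), the NF-kB motif of GGGA, any base and TTTCC (0.356%) and the C/EBP motif TTGCNNAA (9.56%) were searched in the same way and matched 0 of the 7 windows, which says only that these letters are not there.

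Most of these genes were higher with the infusion in both genotypes, with and without salt. Ccr1 was well above background on 5 of 24 arrays and failed the filter on dim probes, so 9 of the 10 genes were tested. In the knockout, 7 of 9 passed with salt and 7 of 9 without, all higher (limma, Benjamini-Hochberg adjusted p under 0.05 over 23503 genes). In the wild type, 9 of 9 passed with salt and 9 of 9 without, all higher, but the comparison without salt lies across slides, and there 0 of 9 passed with slide as a fixed block and 3 of 9 with slide as a random block. Under these blocks 261 and 769 of all 23503 genes passed. Without a block, 25.3% of all genes tested passed in either direction (13.3% higher) in the knockout with salt, 30.6% (14.3% higher) in the knockout without salt, 32.9% (16.3% higher) in the wild type with salt and 25.9% (12.2% higher) in the wild type without salt. The median log2 change of the 9 genes was 2.45 in the knockout with salt and 2.22 without, against medians of −0.02 and −0.05 over all genes. In the wild type it was 2.31 with salt and 2.59 without, against −0.05 and −0.02 over all genes, and the 4 medians are the same with the arrays on which Ccl3 was dim raised to their floor. For 6 of the 9 genes, the CC ligands, all 12 infused arrays lay above all 12 arrays without infusion. That held for 3.55% of the 23465 genes with a value on every array. Ccl3 and Ccl4 passed the filter on dim probes only through infused groups, where alone all 3 arrays of a group were well above background. Their calls and their place among the 6 therefore follow in part from the filter. For Ccl3 the margin was narrow, 0.0577 against 0.0522, among dim signals. In bulk tissue, more cells of a type and more RNA per cell cannot be told apart.

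**Figure D1:**
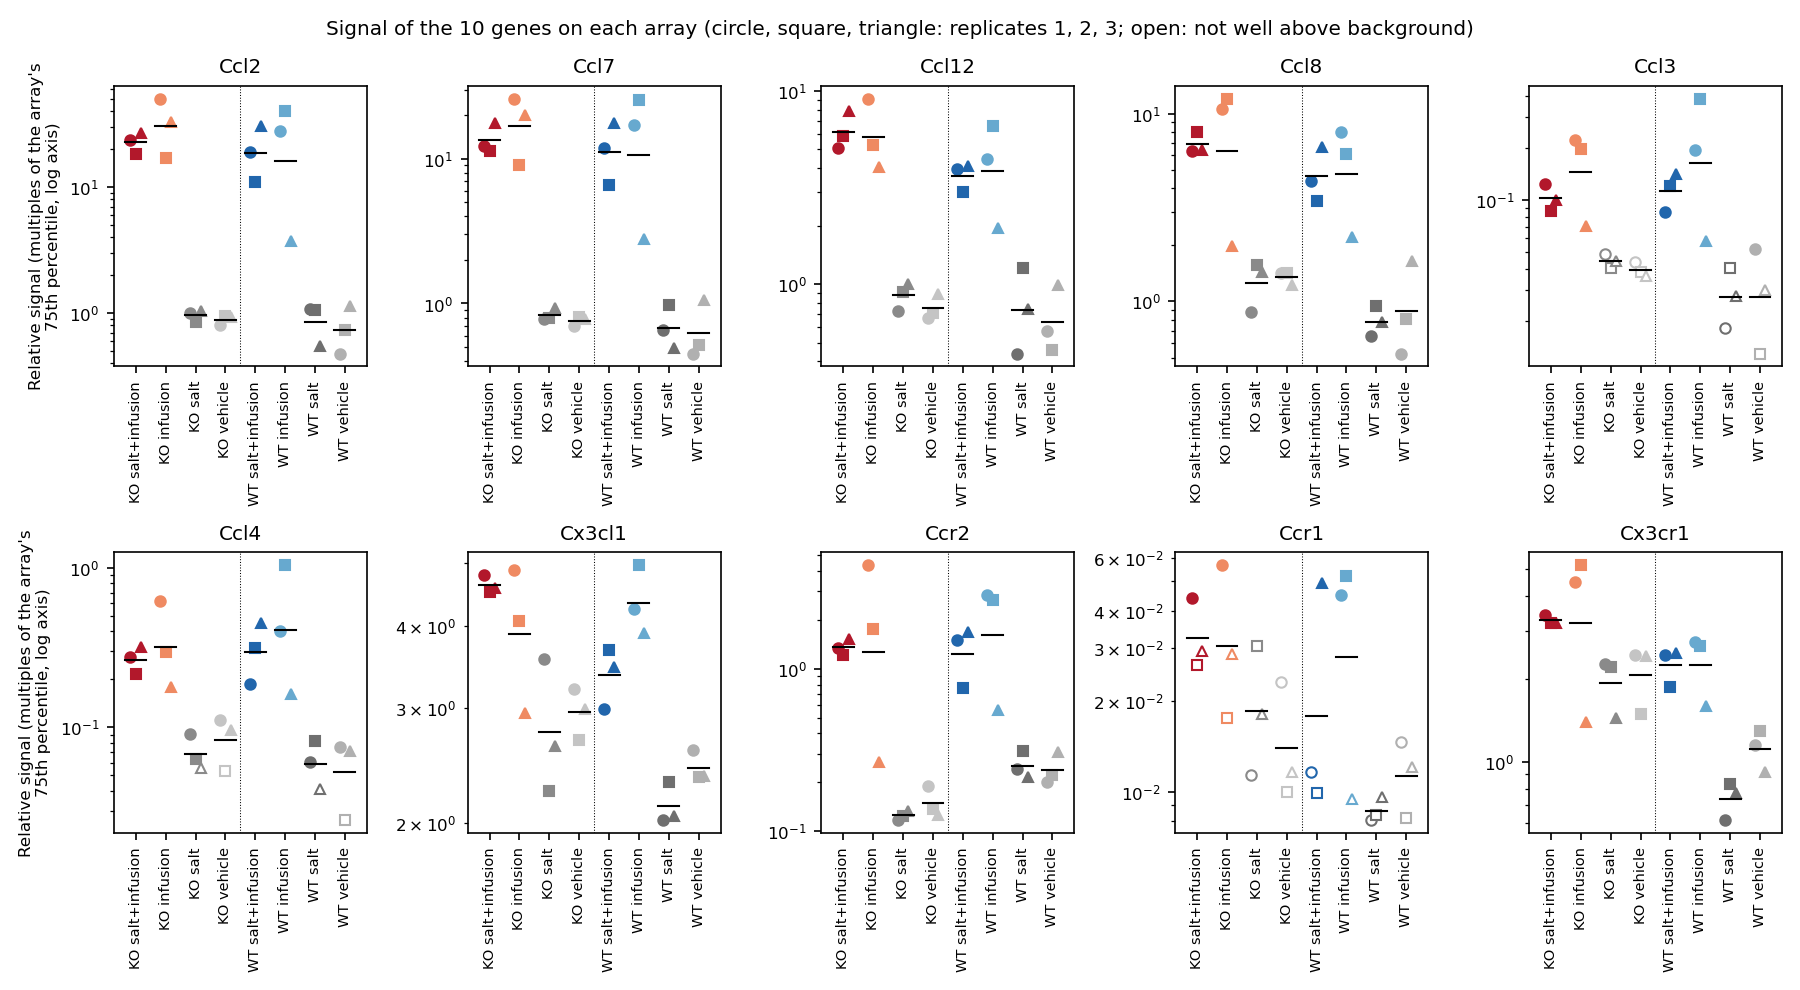
Signal of each of the 10 genes on each of the 24 arrays, as multiples of the array's 75th percentile on a log axis, with knockout (KO) groups to the left and wild-type (WT) groups to the right of the dotted line. Bars are geometric means of 3 arrays, and open symbols were not well above background. For the 6 CC ligands the 12 infused arrays all lie above the 12 others, while for Ccr2, Cx3cl1 and Cx3cr1 the lowest infused arrays (0.268, 2.95 and 1.39) lie below the highest of the others (0.310, 3.56 and 2.45).

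Ccl2, the main ligand of Ccr2, had the largest change of the 9 tested genes in each of the 4 infusion comparisons. Its relative signal, the processed signal as a multiple of the array's 75th percentile, was 50.4, 17.1 and 33.1 in infused knockouts, against 0.801, 0.951 and 0.926 in vehicle knockouts. It was 27.9, 40.1 and 3.74 in infused wild-type mice, against 0.477, 0.732 and 1.14 in vehicle wild-type mice. The groups did not overlap in either genotype, and infused wild-type array 3 was the lowest of the infused arrays. With salt the infused arrays read 23.9, 18.4 and 27.0 in knockouts, against 1.01, 0.849 and 1.04 on salt alone. Wild-type arrays read 19.1, 11.0 and 30.7 with salt and infusion, against 1.08, 1.06 and 0.544 on salt alone. The infusion raised Ccl2 34.3-fold in knockouts without salt (log2 5.10, SE 0.63, adjusted p = 4.81e-05) and 23.8-fold with salt (log2 4.57, SE 0.63, adjusted p = 8.37e-05). For the wild type the change was 21.9-fold without salt (log2 4.45, SE 0.63, adjusted p = 0.000157) and 21.8-fold with salt (log2 4.45, SE 0.63, adjusted p = 0.000114). Leaving out infused wild-type array 2 gave 3.79 on the log2 scale without salt (adjusted p = 0.00175) and leaving out array 3 gave 5.51 (adjusted p = 1.11e-06). In the order of increases among all 23503 genes, Ccl2 stood at place 8 and 58 in the knockout without and with salt, and at 34 and 33 in the wild type. Ccl2 is printed on the array in 10 spots, whose coefficient of variation within an array was 2.09% to 9.22% (median 4.88%).

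By geometric mean, Ccl2 was highest in infused knockouts (30.6), followed by the knockouts with salt and infusion (22.8), the wild type under both exposures (18.6) and the infused wild type (16.1). No difference between neighbours in this order passed the test. Knockouts with salt and infusion differed from infused knockouts by −0.42 (SE 0.63, adjusted p = 1), knockouts from wild-type mice with salt and infusion by 0.29 (SE 0.63, adjusted p = 0.757), and wild-type mice with salt and infusion from infused wild-type mice by 0.21 (SE 0.63, adjusted p = 0.972), all on the log2 scale. The 4 groups without infusion lay between 0.736 and 0.961.

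Ccl7, the next gene along the chromosome and a ligand of Ccr2 as well, followed Ccl2 closely. It read 26.0, 9.04 and 20.2 in infused knockouts, against 0.698, 0.808 and 0.779 in vehicle knockouts. Wild-type mice had 17.1, 25.3 and 2.81 with infusion, against 0.450, 0.519 and 1.06 with vehicle. The same array, infused wild-type array 3, was the lowest of the 12 infused arrays for both genes. Ccl7 rose 22.1-fold in the knockout without salt (log2 4.47, SE 0.59, adjusted p = 7.95e-05) and 16.2-fold with salt (log2 4.02, SE 0.59, adjusted p = 0.000163). It rose 17-fold in the wild type without salt (log2 4.08, SE 0.59, adjusted p = 0.000198) and 16.4-fold with salt (log2 4.03, SE 0.59, adjusted p = 0.000154). Without infused array 2 or 3 the wild-type change without salt was 3.46 or 5.05. Over the 24 arrays, after each group's mean was taken away, the log2 signals of Ccl2 and Ccl7 had r = 0.97 (rho = 0.94, and r = 0.94 without infused wild-type arrays 2 and 3, the 2 arrays farthest out). The 4 genes Ccl2, Ccl7, Ccl12 and Ccl8 are related in sequence, and whether their probes bind each other's RNA was not tested.

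Ccl12, another Ccr2 ligand found in the mouse, read 9.12, 5.27 and 4.06 in infused knockouts, against 0.669, 0.713 and 0.887 in vehicle knockouts. Wild-type mice had 4.45, 6.59 and 1.96 with infusion, against 0.575, 0.457 and 0.998 with vehicle. Every infused array was above every vehicle array. Ccl12 rose 7.72-fold in the knockout without salt (log2 2.95, SE 0.41, adjusted p = 0.000113) and 7-fold with salt (adjusted p = 0.000152). It rose 6.03-fold in the wild type without salt (log2 2.59, SE 0.41, adjusted p = 0.000395) and 4.95-fold with salt (adjusted p = 0.000636).

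Ccl8, which lies beside Ccl12 and in mice attracts cells through another receptor, Ccr8, differed from Ccl2 and Ccl7 among the infused knockout arrays. It read 10.6, 12 and 1.97 in infused knockouts, against 1.42, 1.42 and 1.23 in vehicle knockouts. It read 7.98, 6.13 and 2.20 in infused wild-type mice, against 0.527, 0.810 and 1.65 in vehicle wild-type mice. In both genotypes array 3 was the low one, so that infused knockout array 3, which was in the middle of its group for Ccl2 and Ccl7, was near the vehicle level for Ccl8. With salt and infusion the 3 knockout arrays lay between 6.34 and 7.99, against 0.882 to 1.57 on salt alone. Ccl8 rose 4.65-fold in the knockout without salt (log2 2.22, SE 0.56, adjusted p = 0.00641) and 5.47-fold with salt (adjusted p = 0.0044). Without infused array 3 the knockout change without salt was 3.05 (adjusted p = 0.000107). Ccl8 rose 5.35-fold in the wild type without salt (log2 2.42, SE 0.56, adjusted p = 0.0048) and 5.95-fold with salt (adjusted p = 0.00253).

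Ccl3 and Ccl4, a pair of neighbouring genes for the macrophage inflammatory proteins MIP-1α and MIP-1β, were dim on these arrays. Ccl3 was well above background on all 12 infused arrays but on 1 of the 12 others, wild-type vehicle array 1. It read 0.223, 0.197 and 0.0708 in infused knockouts, against 0.0436, 0.0383 and 0.0364 in vehicle knockouts. Wild-type mice had 0.194, 0.385 and 0.0577 with infusion, against 0.0522, 0.0129 and 0.0301 with vehicle. The groups did not overlap, by a narrow margin in the wild type. Where no array of a group was well above background the fold is a lower bound, taken against the dimmest well-above-background signal of each array, or against the probe itself if that was brighter. Ccl3 rose at least 3.41-fold in the knockout without salt (adjusted p = 0.0166) and at least 2.76-fold in the wild type with salt (adjusted p = 0.0105), and in the wild type without salt, where 1 of 3 vehicle arrays was well above background, 3.32-fold with the dim arrays raised to the same floor (fitted log2 2.58 without the floor, SE 0.56, adjusted p = 0.00337). In the knockout with salt the bound was 2.21-fold and the test did not pass (fitted log2 1.20, SE 0.56, adjusted p = 0.125). Without infused wild-type array 2 or 3 the fitted change in the wild type without salt was 1.95 (adjusted p = 0.0319) or 3.32 (adjusted p = 0.000128). The knockout call was lost without infused array 1 (adjusted p = 0.0907) or array 2 (adjusted p = 0.0624), and the call with salt in the wild type without salt array 1 (adjusted p = 0.0509).

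Ccl4 was well above background on 20 of 24 arrays, all 12 infused ones and 2 of 3 in each of the other groups. It read 0.622, 0.299 and 0.179 in infused knockouts, against 0.111, 0.0536 and 0.0960 in vehicle knockouts. It read 0.400, 1.04 and 0.163 in infused wild-type mice, against 0.0758, 0.0262 and 0.0715 in vehicle wild-type mice. Every infused array lay above every vehicle array of its genotype. Raising the dim arrays to the floor left the knockout folds below as they are and gave 6.82-fold and 4.88-fold in the wild type without and with salt. Ccl4 rose 3.87-fold in the knockout without salt (log2 1.95, SE 0.57, adjusted p = 0.0154) and 3.91-fold with salt (adjusted p = 0.0183). It rose 7.79-fold in the wild type without salt (log2 2.96, SE 0.57, adjusted p = 0.00149) and 5.04-fold with salt (adjusted p = 0.00547). Without infused wild-type array 2 or 3 the change without salt was 2.29 (adjusted p = 0.0148) or 3.62 (adjusted p = 0.000131). The knockout call without salt was lost when vehicle array 2 (adjusted p = 0.0727) or infused array 1 (adjusted p = 0.105) was left out. With salt it was lost without salt array 2 or 3 (adjusted p = 0.0508 and 0.0619) and without infused salt array 1 or 3 (adjusted p = 0.0518 and 0.0644). Within groups Ccl3 and Ccl4 had r = 0.86 over the 24 arrays (rho = 0.80, and r = 0.76 without infused wild-type arrays 2 and 3).

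Cx3cl1, the chemokine tethered to the cell surface, had a much smaller change than the CC ligands. Its signal was 4.88, 4.07 and 2.95 in infused knockouts, against 3.21, 2.68 and 2.99 in vehicle knockouts, and these groups overlapped. It was 4.25, 4.96 and 3.90 in infused wild-type mice, against 2.59, 2.35 and 2.36 in vehicle wild-type mice, without overlap. With salt, it was 4.80, 4.52 and 4.57 in infused knockouts, against 3.56, 2.24 and 2.62 in knockouts on salt alone. The wild type with salt read 2.99, 3.68 and 3.46 with infusion, against 2.02, 2.31 and 2.05 on salt alone. Cx3cl1 rose 1.68-fold in the knockout with salt (log2 0.75, SE 0.17, adjusted p = 0.00423) and its difference without salt did not pass (log2 0.40, SE 0.17, adjusted p = 0.0866). It rose 1.79-fold in the wild type without salt (log2 0.84, SE 0.17, adjusted p = 0.00204) and 1.58-fold with salt (log2 0.66, SE 0.17, adjusted p = 0.00704). Without infused knockout array 3 the knockout difference without salt was 0.59 (adjusted p = 0.00744). Between 12.2% and 16.3% of all genes passed as higher in the infusion comparisons. Among 8 endothelial markers, 1 rose in the knockout with salt and 2 without, and 4 rose in the wild type with salt and 3 without. Their summed signal was 65.8 to 94.6 in knockouts with salt and infusion, against 51.4 to 87.1 on salt alone. In knockouts without salt it was 59.1 to 103 with infusion, against 82.1 to 89.4 with vehicle. In the wild type it was 74.1 to 85.3 with salt and infusion, against 55.5 to 71.2 on salt alone. Infused wild-type mice had 68.3 to 87.4, against 58.8 to 68.1 with vehicle. The part of the endothelial markers in the Cx3cl1 differences was not tested.

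Of the receptors, Ccr2 rose most. It read 4.34, 1.77 and 0.268 in infused knockouts, against 0.190, 0.138 and 0.126 in vehicle knockouts. It read 2.83, 2.64 and 0.556 in infused wild-type mice, against 0.201, 0.221 and 0.307 in vehicle wild-type mice. Infused arrays were above vehicle arrays in each genotype, but in the knockout the 3 infused arrays spread over more than the gap to vehicle, with array 3 the lowest. With salt, infused knockouts read 1.35, 1.21 and 1.53, against 0.117, 0.125 and 0.134 on salt alone. The wild type with salt read 1.50, 0.760 and 1.68 with infusion, against 0.240, 0.310 and 0.216 on salt alone. Ccr2 rose 8.53-fold in the knockout without salt (log2 3.09, SE 0.70, adjusted p = 0.00306) and 10.9-fold with salt (log2 3.44, SE 0.70, adjusted p = 0.00192). It rose 6.72-fold in the wild type without salt (log2 2.75, SE 0.70, adjusted p = 0.00805) and 4.92-fold with salt (log2 2.30, SE 0.70, adjusted p = 0.0177). Without infused knockout array 1 or 3 the knockout change without salt was 2.21 (adjusted p = 0.027) or 4.21 (adjusted p = 2.01e-05), and without infused wild-type array 3 the wild-type one was 3.52 (adjusted p = 0.000851). The wild-type call without salt was lost without infused array 2 (adjusted p = 0.0545), and that with salt without salt array 3 (adjusted p = 0.0576) or infused salt array 1 or 3 (adjusted p = 0.0546 and 0.0735).

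Cx3cr1, the receptor of Cx3cl1, was present at baseline and changed less. It read 4.52, 5.18 and 1.39 in infused knockouts, against 2.45, 1.49 and 2.42 in vehicle knockouts, and array 3 lay below all 3 vehicle arrays. It read 2.73, 2.63 and 1.59 in infused wild-type mice, against 1.15, 1.30 and 0.917 in vehicle wild-type mice, without overlap. With salt, infused knockouts read 3.42, 3.19 and 3.19, against 2.27, 2.21 and 1.44 on salt alone. The wild type with salt read 2.45, 1.87 and 2.49 with infusion, against 0.614, 0.828 and 0.771 on salt alone. These last groups were the farthest apart for Cx3cr1. It rose 3.07-fold in the wild type with salt (log2 1.62, SE 0.36, adjusted p = 0.00297) and 2.03-fold without salt (log2 1.02, SE 0.36, adjusted p = 0.0445). The call without salt was lost when any 1 of wild-type vehicle arrays 1, 2 and 3 or infused arrays 1 and 2 was left out (adjusted p = 0.0931, 0.0634, 0.129, 0.145 and 0.16). In the knockout neither difference passed, at log2 0.76 with salt (SE 0.36, adjusted p = 0.131) and 0.62 without (SE 0.36, adjusted p = 0.21), and without infused array 3 the difference without salt was 1.22 (adjusted p = 0.00153). A second Cx3cr1 probe, also well above background on all 24 arrays, gave 0.89 and 0.73 in the knockout with and without salt (adjusted p = 0.159 and 0.243), and 1.55 and 1.22 in the wild type (adjusted p = 0.015 and 0.0548).

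Ccr1, a receptor of Ccl3, gave between 0.0176 and 0.0566 of the array's 75th percentile in infused knockouts, against 0.0100 to 0.0232 in vehicle knockouts, and 0.00943 to 0.0520 in infused wild-type mice, against 0.00820 to 0.0146 in vehicle wild-type mice, with overlap in both. It was well above background on 1 of 3 arrays of knockouts with salt and infusion, 1 of 3 infused knockouts, 1 of 3 wild-type arrays with salt and infusion, 2 of 3 infused wild-type arrays and 0 of the 12 others. In a fit without the filter its infusion differences did not pass, with adjusted p = 0.38 and 0.269 in the knockout with and without salt and 0.283 and 0.19 in the wild type, and no fold is given since no array without infusion was well above background.

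**Figure D2:**
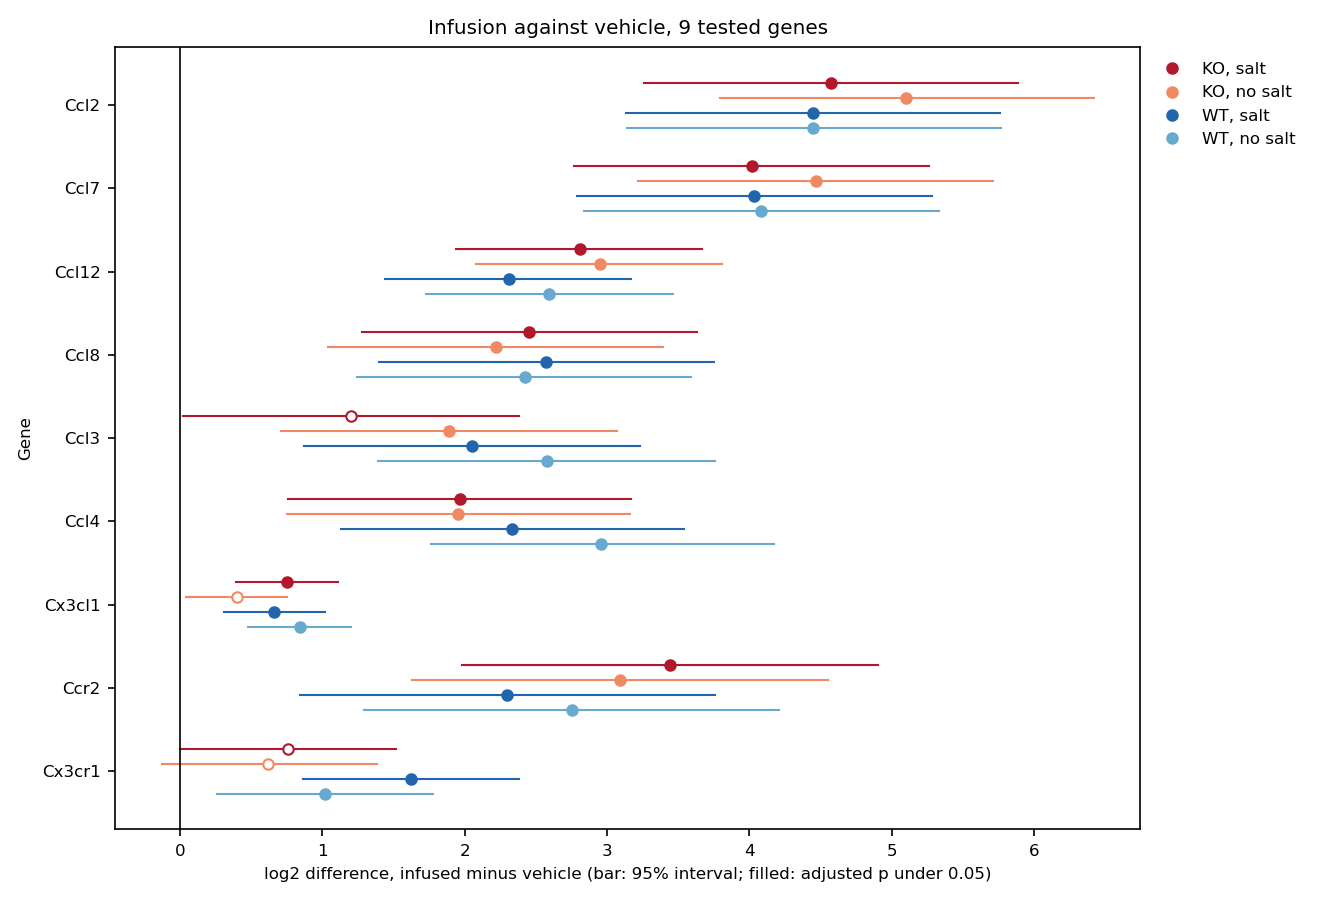
Fitted log2 difference between infused and vehicle arrays for the 9 tested genes, with 95% intervals from the fit over 24 arrays. Filled points passed an adjusted p of 0.05. The Ccl2 points lie between 4.45 and 5.10, and the open points are Ccl3 in the knockout with salt, Cx3cl1 in the knockout without salt and Cx3cr1 in both knockout comparisons.

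Slide bears on these comparisons. Within slide 1, which compares infused knockout arrays 1 and 2 with the 3 vehicle arrays, Ccl2 rose by 5.04 on the log2 scale (adjusted p = 0.000205), Ccr2 by 4.21 (adjusted p = 0.000265), Ccl8 by 3.05 (adjusted p = 0.000204) and Cx3cr1 by 1.22 (adjusted p = 0.0123), while Cx3cl1 had 0.59 (adjusted p = 0.0513). Within slide 3, which compares infused salt arrays 1 and 2 of the wild type with the 3 on salt alone, all 9 genes passed, among them Ccl2 at 4.09 (adjusted p = 0.00148), Ccr2 at 2.08 (adjusted p = 0.00427) and Cx3cr1 at 1.55 (adjusted p = 0.00263). So did 6778 of all 23503 genes. No slide held both wild-type groups without salt. With slide as a fixed block, a term that there rests on the salt and infusion arrays of slides 3 and 4, 0 of 9 genes passed in that comparison, with Ccl2 at 3.37 (adjusted p = 0.163), Ccl7 at 3.08 (adjusted p = 0.178) and Ccr2 at 2.09 (adjusted p = 0.235), and at an unchanged sign for all 9. With slide as a random block 3 of 9 passed, Ccl2 (3.85, adjusted p = 0.0302), Ccl7 (3.53, adjusted p = 0.0341) and Ccl12 (2.45, adjusted p = 0.0328). Among all 23503 genes, 261 passed in that comparison with the fixed block and 769 with the random block. In the knockout with salt the fixed block rests on the 3 infusion-only arrays, of which arrays 1 and 2 lay on slide 1 and array 3 on slide 2, and gave Ccl2 4.40 (adjusted p = 0.00803), Ccr2 6.81 (adjusted p = 3.71e-05) and Cx3cr1 2.56 (adjusted p = 0.000438).

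Array 3 of the infusion-only groups was the low array of its group in both genotypes for Ccl12, Ccl8, Ccl3, Ccl4, Cx3cl1, Ccr2 and Cx3cr1, and the genotypes parted in Ccl2 and Ccl7. On the wild-type side, array 3 was the lowest of its group for all 10 genes. In the knockout, array 3 had Ccl2 at 33.1 and Ccl7 at 20.2, each between the other arrays of its group. It was the lowest of its group for the other 7 tested genes, among them Ccl12 at 4.06, Ccl8 at 1.97, Ccl4 at 0.179, Ccr2 at 0.268 and Cx3cr1 at 1.39. The summed signal of 17 macrophage markers was 152 on this array, against 292 and 287 on the other infused knockout arrays, and 103 on infused wild-type array 3, against 194 and 195 on the other infused wild-type arrays. Their part in the low signals of the 7 genes was not tested. Without array 3 of both groups, an alternative chosen after seeing the data, 9 of 9 genes passed in the knockout without salt and 9 of 9 in the wild type without salt. So did 10573 and 9405 of all 23503 genes. Ccr2 was then higher by 4.21 in the knockout (adjusted p = 2.01e-07) and by 3.52 in the wild type (adjusted p = 1.36e-06), and Ccl2 by 5.04 (adjusted p = 6.2e-07) and 5.51 (adjusted p = 3.38e-07).

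Within groups, Ccr2 ran with Ccl8 and less closely with Ccl2, a difference that rests on a pair of arrays. After group means were taken away, Ccr2 had r = 0.87 with Ccl8 (rho = 0.85, and r = 0.81 without infused knockout arrays 1 and 3), r = 0.77 with Cx3cr1 (rho = 0.58, and r = 0.56 without the same arrays) and r = 0.58 with Ccl2 (rho = 0.60, and r = 0.82 without them). Cx3cr1 and Ccl2 had r = 0.18 (rho = 0.10). These are descriptions over 24 arrays that share slides, and without infused knockout arrays 1 and 3 the values for Ccl8 and Ccl2 were alike.

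**Figure D3:**
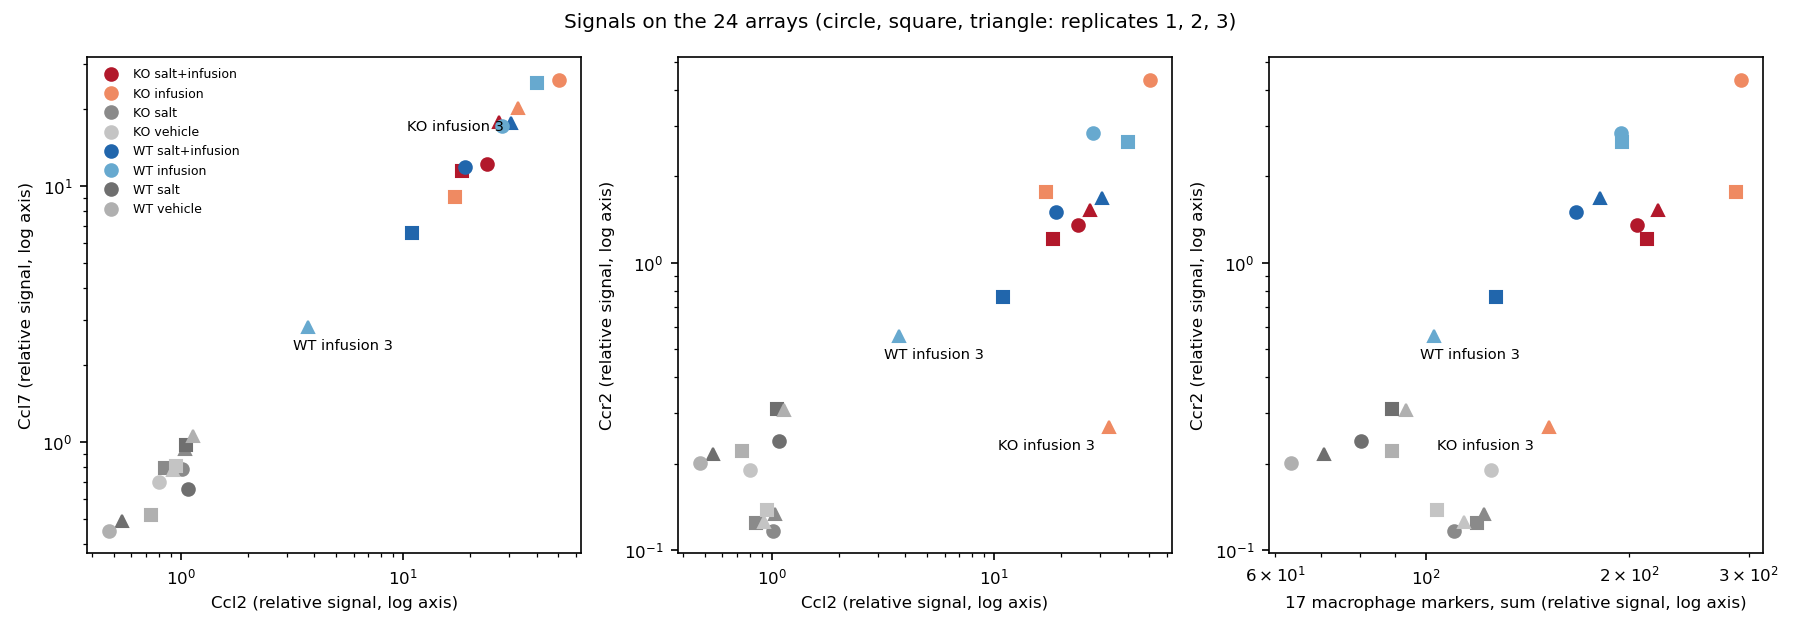
Ccl7 against Ccl2, Ccr2 against Ccl2, and Ccr2 against the summed signal of 17 macrophage markers, with 1 point per array on log axes in multiples of the array's 75th percentile. Infused knockout array 3 lies with the other infused arrays for Ccl2 (33.1) and Ccl7 (20.2) and near the vehicle arrays for Ccr2 (0.268).

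Most macrophage markers rose with the infusion. Of 17, 11 rose and 1 fell in the knockout with salt, 12 rose and 0 fell without salt, and in the wild type 11 rose and 0 fell with salt and 13 rose and 1 fell without. Cd68, a lysosomal protein of macrophages, rose by 1.99 in the knockout (adjusted p = 0.000227) and by 1.58 in the wild type (adjusted p = 0.00148) without salt, and Adgre1, the macrophage surface protein F4/80, rose by 0.89 (adjusted p = 0.0483) and 1.35 (adjusted p = 0.0068). The summed macrophage signal was 205 to 220 in knockouts on salt plus infusion and 152 to 292 in infused knockouts, against 110 to 122 on salt alone and 104 to 125 with vehicle. Wild-type sums were 127 to 181 on salt plus infusion and 103 to 195 with infusion, against 70.7 to 89.2 on salt alone and 63.3 to 93.4 with vehicle. Of all genes tested, between 25.3% and 32.9% passed in these comparisons. Of 10 measured monocyte markers, 3 rose and 1 fell in the knockout with salt, 3 and 1 without, 2 and 1 in the wild type with salt, and 4 and 0 without. Their summed signal was 93.2 to 125 in infused knockouts, against 104 to 111 in vehicle knockouts. It was 170 to 209 in infused wild-type mice, against 168 to 221 in vehicle wild-type mice, and so overlapped in both genotypes. With salt the sum overlapped in knockouts, at 93.1 to 108 with infusion, against 105 to 119 on salt alone. In wild-type mice with salt it was lower with infusion, without overlap, at 174 to 184, against 188 to 209 on salt alone. A sum of linear signals weighs bright genes most, and the median log2 change of the 10 markers was 0.2 there. Ly6c2, another listed monocyte marker, was not found by name on the array. Of 6 measured neutrophil markers 1 rose in each of the 4 comparisons, and of 8 measured T and NK cell markers 1 rose and 0 fell in the knockout with salt, 0 and 2 without, 0 and 1 in the wild type with salt, and 0 and 0 without. Of the markers listed, 3 of 9 for neutrophils and 4 of 10 for T and NK cells were well above background on all 24 arrays, while Ngp, a neutrophil marker, and the NK cell markers Ncr1 and Klrb1c were so on 0. The part of these cells in the chemokine and receptor signals was not tested.

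Some fibroblast and smooth muscle markers fell with the infusion. Of all 23503 genes, 2818 and 3849 passed as lower in the knockout with and without salt, and 3910 and 3222 in the wild type. Of 7 fibroblast markers 0 rose and 5 fell in the knockout with salt, 0 and 3 without, 1 and 4 in the wild type with salt, and 1 and 3 without. Their summed signal was 444 to 525 in knockouts with salt and infusion, against 679 to 818 on salt alone, and 534 to 659 in infused knockouts, against 696 to 813 with vehicle. In wild-type mice it was 434 to 525 under both exposures, against 634 to 690 on salt alone, and 483 to 576 with infusion, against 565 to 660 with vehicle. Of 8 smooth muscle markers 2 fell in the knockout with salt, 3 without, 0 in the wild type with salt and 2 without, and 0 rose. Their summed signal was 1190 to 1540 in knockouts with salt and infusion, against 1720 to 1840 on salt alone, and overlapped in the other 3 comparisons. Of 5 measured adipocyte markers 1 fell in the knockout without salt and 0 passed in the other 3. The part of these cells in the chemokine and receptor differences was not tested.

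Other chemokines and receptors moved in both directions. Of 9 measured CC chemokines outside the 10 genes, 4 rose and 3 fell in the knockout with salt, 5 and 2 without, 5 and 3 in the wild type with salt, and 4 and 3 without. The share of all genes that passed in either direction was 25.3% to 32.9%. Ccl6, a chemokine made by myeloid cells, rose 5.16-fold and 5.90-fold in the knockout with and without salt (adjusted p = 0.000627 and 0.000319) and 4.60-fold and 4.08-fold in the wild type (adjusted p = 0.000873 and 0.00202). Ccl11, the eosinophil attractant eotaxin, fell by 1.55 and 1.04 on the log2 scale in the knockout with and without salt (adjusted p = 0.000752 and 0.00841) and by 1.84 and 1.85 in the wild type (adjusted p = 0.000173 and 0.000232). Ccl27a fell by 1.03 to 1.17 (highest adjusted p = 0.000389). Ccl5, another ligand of Ccr1, passed in 1 of the 4 comparisons, the wild type with salt (log2 1.88, adjusted p = 0.0302).

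Among 11 measured CXC and XC chemokines, 2 rose in the knockout with salt and 4 without, 5 rose in the wild type with salt and 5 without, and 0 fell. The share of all genes that passed as higher was 12.2% to 16.3%. With dim arrays raised to the floor, Cxcl14 rose 10.2-fold and 16.2-fold in the knockout with and without salt (adjusted p = 0.011 and 0.00495), 9.68-fold in the wild type with salt (adjusted p = 0.0068) and at least 12.9-fold without (adjusted p = 0.00244), where no vehicle array was well above background. It was well above background on 2 of 3 knockout arrays on salt alone, 1 of 3 vehicle knockouts and 1 of 3 wild-type arrays on salt alone. Cxcl10, an interferon-induced attractant of T cells, rose 11.0-fold and 11.9-fold in the knockout (adjusted p = 0.00961 and 0.00617) and 19.9-fold in the wild type with salt (adjusted p = 0.000482), where 1 of 3 arrays on salt alone was well above background and the others were raised to the floor, and had log2 2.46 in the wild type without salt (adjusted p = 0.0506). Cxcl16 rose 2.06-fold and 1.87-fold in the wild type with and without salt (adjusted p = 0.00285 and 0.00878), and its knockout differences of 0.55 and 0.59 did not pass (adjusted p = 0.0907 and 0.059).

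Of 10 measured chemokine receptors outside the 10 genes, 1 rose and 1 fell in the knockout with salt, and 2 and 1 without. In the wild type 1 rose and 1 fell with salt, and 2 and 1 without. Between 25.3% and 32.9% of all genes passed in these comparisons. The receptor that fell was Ccrl2, an atypical receptor that binds chemerin. It fell by 1.30 and 1.46 on the log2 scale in the knockout with and without salt (adjusted p = 0.000554 and 0.000215) and by 1.24 and 0.97 in the wild type (adjusted p = 0.000665 and 0.00438). Ccr7, a lymph node homing receptor, rose in the knockout without salt (log2 1.77, adjusted p = 0.0281) and passed in no other of the 4.

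Of 7 genes that scavenge or cut chemokines, 0 rose and 1 fell in the knockout with salt, 0 and 0 without, 1 and 2 in the wild type with salt, and 0 and 2 without. The share of all genes that passed in either direction was 25.3% to 32.9%. Ackr2, a decoy receptor that takes up inflammatory CC chemokines, fell by 1.29 in the knockout with salt (adjusted p = 0.0234) and by 1.61 and 1.54 in the wild type with and without salt (adjusted p = 0.00539 and 0.00868), with −0.53 in the knockout without salt (adjusted p = 0.339). Ackr1, a chemokine-binding receptor of venules, fell by 1.16 in the wild type with salt (adjusted p = 0.0393), where 2 of 3 infused arrays were well above background. Dpp4, a peptidase that trims chemokines, fell by 1.02 in the wild type without salt (adjusted p = 0.0248). Adam10 and Adam17, proteases that release Cx3cl1 from the cell surface, passed in 0 of the 4, with Adam10 between 0.15 and 0.39 (lowest adjusted p = 0.0594) and Adam17 between −0.16 and 0.29 (lowest adjusted p = 0.123). Of 6 measured growth factor genes of mononuclear phagocytes, 1 rose in the knockout with salt, 2 without, 1 in the wild type with salt and 3 without. The share of all genes that passed as higher was 12.2% to 16.3%. Csf2ra, the GM-CSF receptor α chain, rose 1.84-fold and 1.89-fold in the knockout (adjusted p = 0.0265 and 0.0177) and 1.80-fold and 1.79-fold in the wild type (adjusted p = 0.0266 and 0.0338). Csf2rb, its signalling partner, rose in the comparisons without salt, 3.06-fold in the knockout (adjusted p = 0.0397) and 4.58-fold in the wild type (adjusted p = 0.00966). Csf1r, the receptor for macrophage colony-stimulating factor, rose 1.55-fold in the wild type without salt (adjusted p = 0.0473) and did not pass in the other 3.

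**Figure D4:**
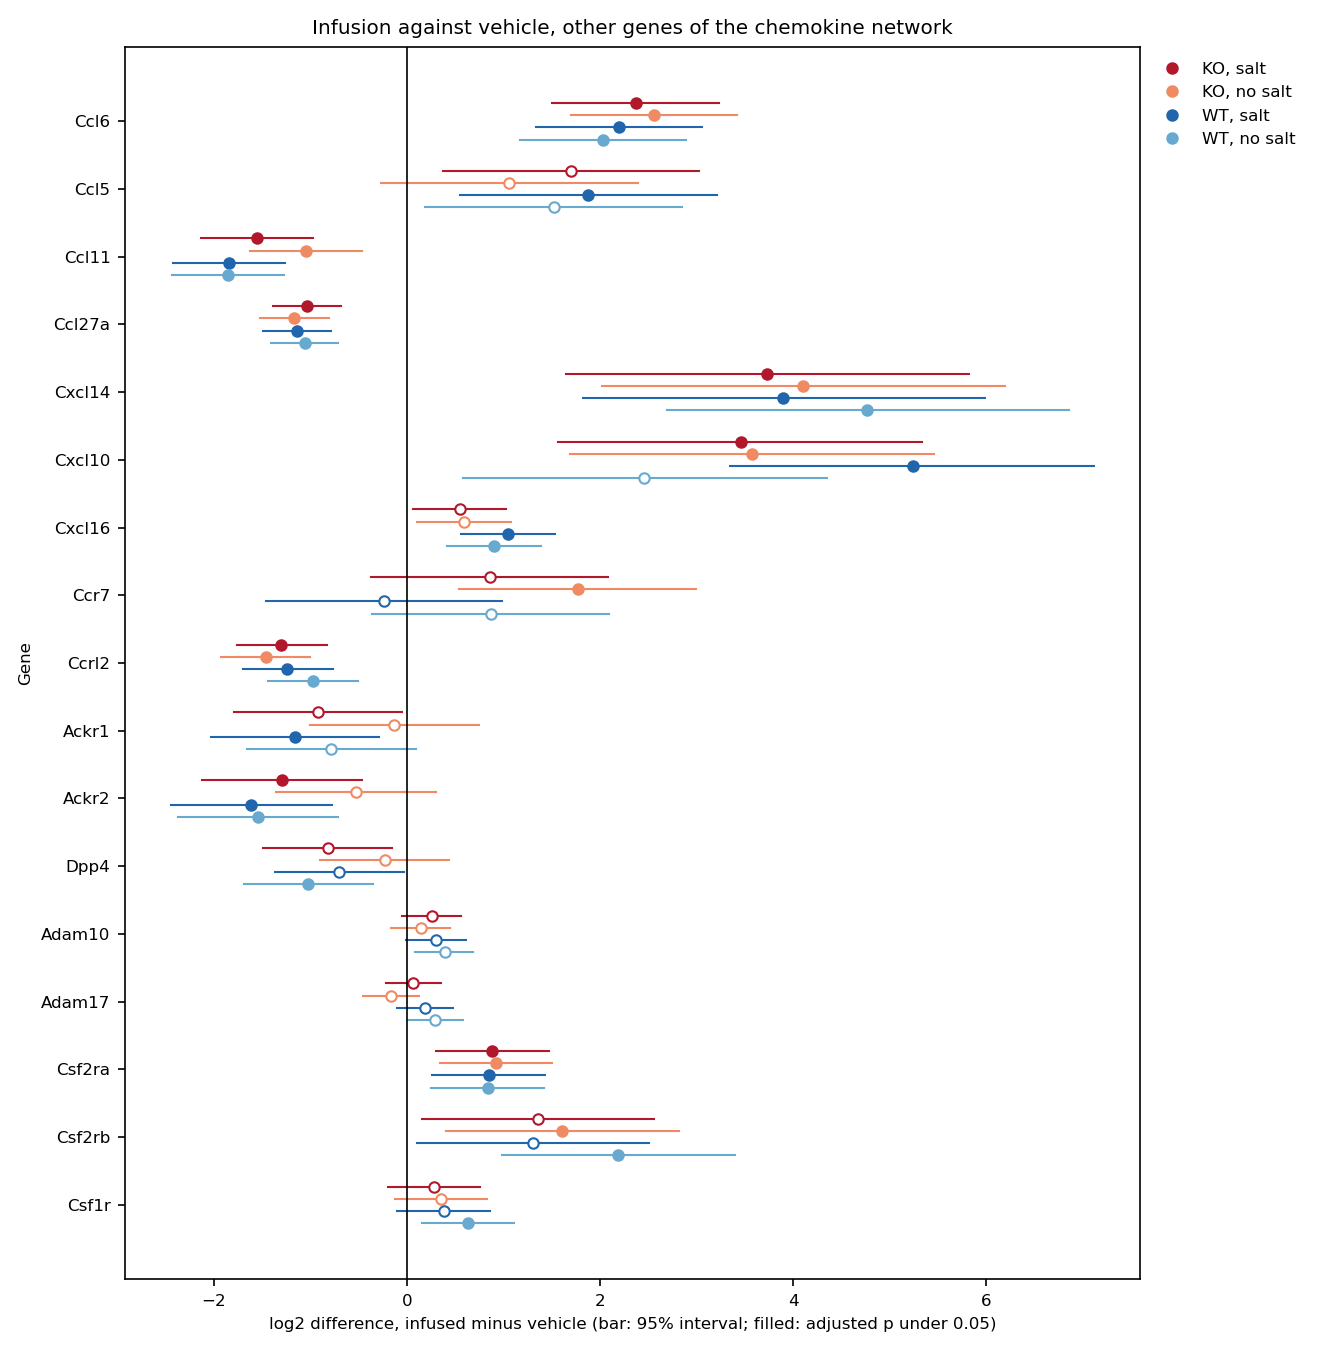
Fitted log2 difference between infused and vehicle arrays for other chemokine network genes, with 95% intervals. Filled points passed an adjusted p of 0.05. Ccl6, Cxcl14 and Csf2ra are filled above 0 and Ccl11, Ccl27a and Ccrl2 below 0 in all 4 comparisons.

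Salt was examined with and without the infusion, as the exposure that the design adds to it. None of the 9 tested genes passed in any salt comparison (limma, 0 of 9 in each). Without infusion, 714 of all 23503 genes had an unadjusted p under 0.05 in knockouts and 499 in the wild type, and 0% passed. Of the 9 genes, 0 had such a p in either genotype. The log2 differences, salt minus no salt, ran from −0.28 to 0.22 in vehicle knockouts and from −0.60, for Cx3cr1 (SE 0.36), to 0.21 in vehicle wild-type mice. In infused knockouts, 1067 of all genes had an unadjusted p under 0.05 and 0.00425% passed. Of the 9 genes 0 had such a p, and their differences ran from −0.51 to 0.25. In infused wild-type mice 1 of 9 did, Cx3cl1, against 1354 of all genes, and 0% of all genes passed. Cx3cl1 read 2.99, 3.68 and 3.46 with salt and infusion, against 4.25, 4.96 and 3.90 with infusion alone, so that salt arrays were all lower (log2 −0.37, SE 0.17, adjusted p = 0.843). For Ccl2 the difference was −0.42 in infused knockouts (95% interval −1.73 to 0.89, adjusted p = 1) and 0.21 in infused wild-type mice (−1.10 to 1.52, adjusted p = 0.972). Without infused wild-type array 3 the wild-type value turned to −0.84 (adjusted p = 1). These intervals are wide, and a change of Ccl2 by salt within them was not detectable with 3 arrays a group.

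Genotype was compared in vehicle mice, infused mice and mice with salt and infusion, where it cannot be told apart from slide and scan session. It was not tested on salt alone. There the arrays did not overlap for Cx3cr1, higher in knockouts (1.44 to 2.27, against 0.614 to 0.828). Nor did they for Ccr2, lower in knockouts (0.117 to 0.134, against 0.216 to 0.310). None of the 9 genes passed in vehicle mice, infused mice or mice with salt and infusion, while 37.2%, 46.1% and 28.6% of all genes did. Of all 23503 genes, 10903, 12428 and 9527 had an unadjusted p under 0.05, and of the 9 genes 1, 0 and 1. The first was Cx3cr1 in vehicle mice, where it read 2.45, 1.49 and 2.42 in knockouts, against 1.15, 1.30 and 0.917 in wild-type mice. All knockout arrays were higher (log2 0.90, SE 0.36, adjusted p = 0.058). The second Cx3cr1 probe read 0.444, 0.262 and 0.431 in vehicle knockouts, against 0.178, 0.228 and 0.0844 in vehicle wild-type mice (log2 1.29, SE 0.45, adjusted p = 0.0322), so that the 2 probes fall on either side of the threshold. Without vehicle knockout array 2 the brighter probe gave 1.13 (adjusted p = 0.0391). Of 17 macrophage markers 4 were higher and 0 lower in vehicle knockouts, with a summed signal of 104 to 125, against 63.3 to 93.4 in vehicle wild-type mice, and their part in the Cx3cr1 difference was not tested. The other gene was Cx3cl1 with salt and infusion, higher on all knockout arrays, which read 4.80, 4.52 and 4.57, against 2.99, 3.68 and 3.46 in the wild type (log2 0.46, SE 0.17, adjusted p = 0.0506). Ccr2 ran the other way in vehicle mice, at 0.190, 0.138 and 0.126 in knockouts, against 0.201, 0.221 and 0.307 in wild-type mice (log2 −0.68, SE 0.70, adjusted p = 0.462).

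The test of whether infusion or salt acted differently in the 2 genotypes compares differences within genotypes. Slide offsets within a genotype remain in it, since wild-type infusion without salt and knockout infusion with salt were compared across slides. None of the 9 genes passed for infusion without salt (0% of all genes), infusion with salt (0.0596%) or salt during infusion (0%). The numbers with an unadjusted p under 0.05 were 0, 0 and 1, against 1532, 2118 and 1641 of all 23503 genes. With slide as a fixed block Ccr2 passed for infusion with salt (4.73, adjusted p = 0.0113), where 1968 of all genes did, against 14 without the block. For Ccl2, knockout minus wild type, the infusion effect differed by 0.65 without salt (95% interval −1.21 to 2.51, adjusted p = 0.925) and by 0.12 with salt (−1.74 to 1.98, adjusted p = 0.987). The gene with the smallest p was Cx3cl1 for salt during infusion, with a difference of 0.62 (95% interval 0.12 to 1.13, adjusted p = 0.698). Cx3cr1 passed for infusion in the wild type and not in the knockout, and the difference with salt was −0.86 (95% interval −1.93 to 0.21, adjusted p = 0.669), so that a difference was not shown.

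**Figure D5:**
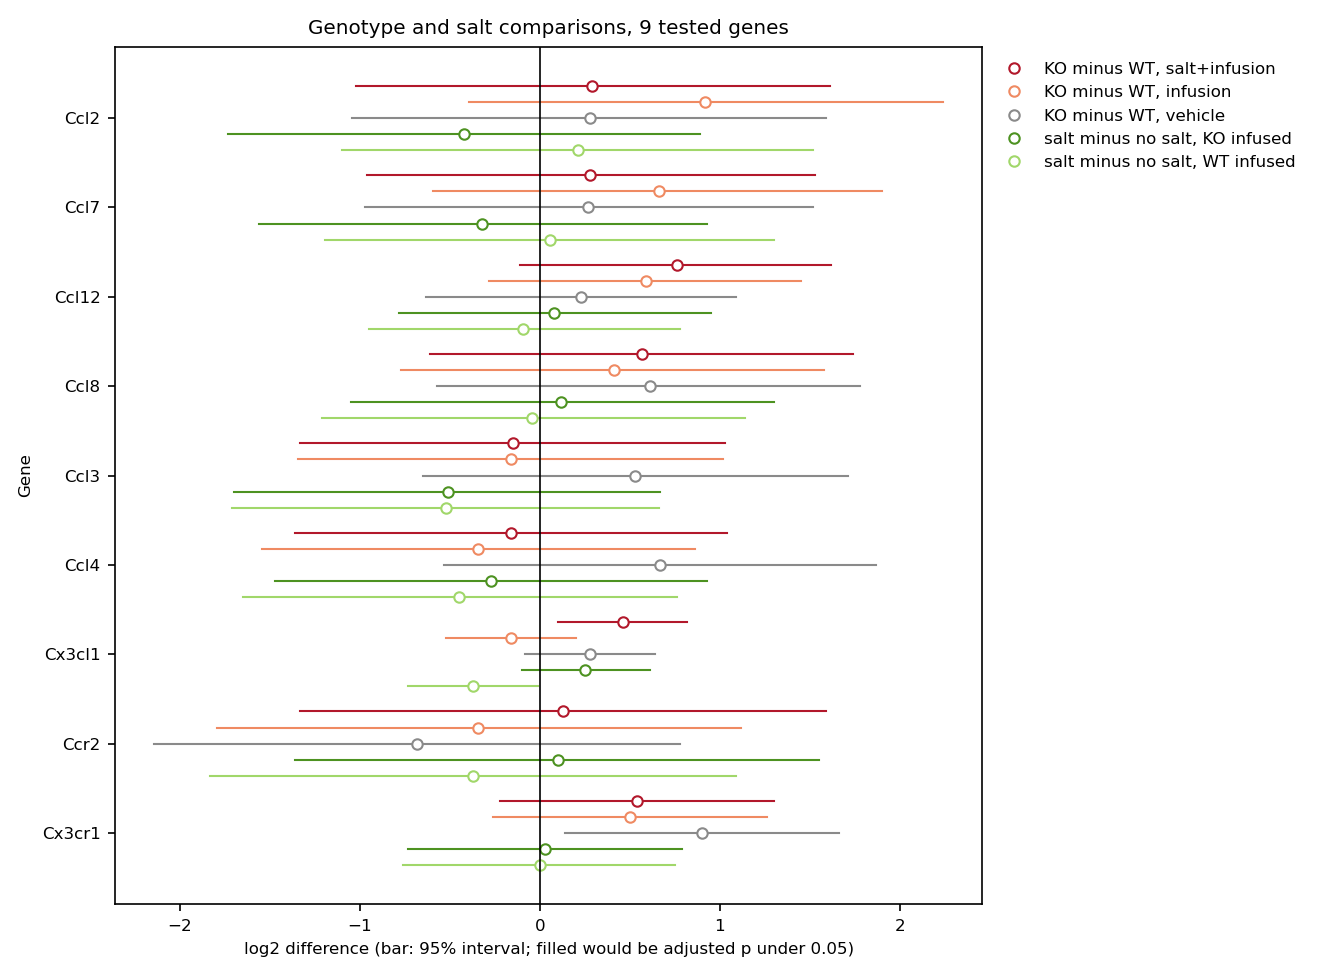
Log2 differences for the 9 tested genes, knockout minus wild type in 3 exposures and salt minus no salt in infused mice, with 95% intervals. Every point is open, since none passed an adjusted p of 0.05. The intervals for Cx3cr1 in vehicle mice and for Cx3cl1 with salt and infusion lie above 0, and that for Cx3cl1 with salt in infused wild-type mice lies just below 0 (−0.73 to −0.01).

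The genes whose log2 signal ran most like those of 4 of the genes were listed over the 24 arrays, among 14651 other tested genes with a symbol. Since the points share the difference between infused and other arrays, r within groups, after each group's mean was taken away, is given beside it. For Ccl2 they were Ccl7 (r = 0.997, within groups 0.975), Esm1 (0.982 and 0.782), Tubb6 (0.979 and 0.804), Prg4 (0.979 and 0.816) and Timp1 (0.978 and 0.783). For Ccr2 they were Sirpb1a (r = 0.986, within groups 0.958), Cd52 (0.977 and 0.946), Hmgb2 (0.973 and 0.887), Evl (0.970 and 0.939) and Traip (0.970 and 0.908), so the likeness held within groups more than it did for Ccl2 apart from Ccl7. For Cx3cr1 they were Maged2 (r = 0.940, within groups 0.761), Acsl5 (0.930 and 0.851), Casp8 (0.928 and 0.825), Fech (0.928 and 0.901) and Dynlt1f (0.927 and 0.814). For Cx3cl1 they were Hhat (r = 0.922, within groups 0.633), Rgs12 (0.922 and 0.703), Fscn1 (0.901 and 0.502), Selp (0.901 and 0.835) and Snai1 (0.899 and 0.573). Ccl2 was therefore not among the genes most like Ccr2, its receptor, nor was Cx3cl1 among those most like Cx3cr1.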

How the data were processed

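Cy3-labelled RNA was hybridised to one-colour Agilent arrays. Each array's deposited scanner file holds the processed signal, a linear intensity from which background and spatial trends were taken away, per the file headers, which name Agilent Feature Extraction 10.7.1.1, whereas the submitters' processing notes name 9.5.1.1. Well-above-background, saturation and outlier flags were used as deposited by the authors. The authors' processed table, intensity on a linear scale, served as an alternative. Its columns have the same sorted values (quantile-normalised, median 30.982), no centring or turned direction was seen, and other steps are not given in the sources used here.

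The log2 of the deposited signal minus the array's 75th percentile was analysed. Spots flagged as outliers (2910 over 24 arrays) were dropped, and repeated spots were averaged. Probes were kept where some group had all 3 of its arrays well above background, with 2 or more values in every group, which left 33374 of 55681 probes. The brightest probe stood for a gene. Names came from RefSeq through accessions for 27235 probes, 3581 were named in the files by a current RefSeq symbol and 24865 kept another name from the files.

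One model with a mean for each of 8 groups was fitted to 23503 genes (lmFit and eBayes, limma 3.58.1, R 4.3.3, tables read with the package data.table, version 1.17.8), with Benjamini-Hochberg adjustment and a threshold of 0.05. It was tested on simulated data. Figures used matplotlib 3.10.9. The series states biological replicates, and the number of arrays limits the precision. Titles and source names number the wild-type salt arrays differently, and the source names' numbers were used. The members, lists and tests were chosen with earlier results of these data known. The rule named the 10 members, up to 3 genes per chemokine list of smallest median p over the 4 infusion comparisons, further genes set by name (Ccl5, Ackr1, Ackr2, Adam10, Adam17 and Csf1r, with another that is not reported here), and the 5 genes most like each of Ccl2, Ccr2, Cx3cr1 and Cx3cl1. Cd68, Adgre1, Ncr1, Klrb1c and Ngp were named from the marker lists after their values were seen. Marker lists were macrophage, monocyte, neutrophil, T and NK cell, endothelial, smooth muscle, fibroblast and adipocyte genes. The alternatives were quantile normalisation, normexp with an offset of 50, the authors' values, no filter on dim probes, the mean of a gene's probes, blocks for slide (fixed, or random with correlation 0.482) or for replicate number, a fit of only the groups compared, fits within 1 slide, and fits without each array in turn. Added after seeing the data were a fit without array 3 of both infusion-only groups, and folds with dim signals raised to the array's lowest well-above-background signal.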

Additional observations from a re-analysis of the deposited data

How the results depend on the processing

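The infusion differences of the 9 genes kept their sign under all 576 combinations of gene, comparison and alternative, and 517 of these kept their side of the threshold. With slide as a fixed block 0 genes passed for infusion in the wild type without salt, with a random block 3, and with only the compared groups 4, against 9. In the knockout without salt 4 passed with only the compared groups, against 7. Over fits that leave out 1 array each, 7 to 9 passed in the wild type without salt, 5 to 9 in the knockout without salt, 8 to 9 in the wild type with salt and 6 to 7 in the knockout with salt. For genotype in vehicle mice 1 gene, Cx3cr1, passed with normexp, the mean of a gene's probes, the replicate number as a block and only the compared groups, and 0 to 1 with 1 array left out. For genotype in infused mice the range was 0 to 2 (Ccl8 and Cx3cr1 without infused knockout array 3), and 1 passed without array 3 of both infusion-only groups (Cx3cr1). For genotype with salt and infusion 1 passed with normexp (Cx3cl1) and 3 with only the compared groups (Ccl12, Cx3cl1 and Cx3cr1). For the difference between genotypes in infusion with salt 1 passed with slide as a fixed block (Ccr2, 4.73, adjusted p = 0.0113), whose slide term in the knockout rests on infused array 3 against arrays 1 and 2. The cause of these changes was not tested.

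In the salt and genotype comparisons, where no gene passed, the sign changed in 182 of 1566 combinations, in 0 of them with a call. Without infused wild-type array 3 Ccl2 turned to −0.84 for salt in infused wild-type mice, −0.13 for genotype in infused mice, −0.40 for the genotype difference in infusion without salt and 0.42 for that in salt during infusion. Without array 3 of both infusion-only groups these were −0.84, −0.19, −0.46 and 0.48. Ccl2 also turned to −0.15 for salt without infused salt array 3 of the wild type, and for the genotype difference in infusion with salt to −0.05 and −0.03 without wild-type salt array 1 or 2 and −0.26 without infused salt array 2 of the wild type. With 1 array left out at a time, Ccl2 ran from −0.84 to 0.87 for salt in infused wild-type mice, −0.13 to 1.58 for genotype in infused mice, −0.40 to 1.31, −0.26 to 0.48 and −1.29 to 0.42 for the genotype differences in infusion without salt, infusion with salt and salt during infusion.

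Deviations of arrays with the same number had correlations between −0.45 and 0.45 and were not over 0.1 for all 3 numbers in any comparison, so the numbers do not pair the arrays. With the replicate number as a block 9 genes passed for infusion in the wild type without salt, and the call it moved was that of Cx3cr1 above (0.90, adjusted p = 0.0487). Over all genes, 6086 passed for infusion in the wild type without salt, against 261 with slide as a fixed block, 769 as a random block, 1237 with only the compared groups and 9405 without array 3 of both infusion-only groups. Without wild-type vehicle array 1 or infused array 2 it was 3760 or 2674. For the knockout without salt it was 7202, against 2390 with only the compared groups and 3964 without infused array 1. For the knockout with salt 5935 passed, against 3634 to 3952 without salt array 1 or infused salt array 1 or 3, and for the wild type with salt 7739, against 5109 and 4474 without salt array 3 or infused salt array 3. With slide as a random block 1986, 4906 and 2362 genes passed for genotype in vehicle mice, infused mice and mice with salt and infusion, against 8737, 10840 and 6711. With only the compared groups 3888 passed in infused mice, and with salt and infusion 11685 passed with normexp and 4113 without knockout array 1. For salt in infused knockouts 1 gene passed, against 0 to 393 over the alternatives, and for the genotype difference in infusion with salt 14, against 0 to 1968. Under quantile normalisation 50.8% of the genotype calls in vehicle mice and 47.6% with salt and infusion were higher in knockouts, against 38.8% and 36.8%, and under normexp 40% of the calls for infusion in the knockout with salt were higher, against 52.5%. Normexp moved the median of all genes to −0.13 for infusion in the knockout with salt and −0.14 for genotype with salt and infusion, against −0.02 in both. Signal limits Ccl3, Ccl4 and Ccr1, which were well above background on 13, 20 and 5 of 24 arrays.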
